A study of Mus musculus with 4 samples.

Results

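Retinoid handling was followed through 9 genes of the mouse mammary carcinoma line 4T1: the cellular carriers Rbp2, Crabp1 and Crabp2, the plasma carrier Rbp4, the retinaldehyde dehydrogenases Aldh1a1 and Aldh1a3, and the retinoic acid receptors Rara, Rarb and Rarg. All 9 were found among the 24411 genes listed in each library. Rbp2 was chosen by its measured pattern in these libraries, present in the controls and listed at 0 after CD95 disruption, and the other 8 genes were chosen by function. The values of Rbp2 between the groups are therefore a description. The series compared 2 control cultures of 4T1 with 2 single-cell clones in which the gene for CD95 (gene symbol Fas, the receptor of Fas ligand) had been disrupted with Cas9. The protocols place a pair of guide RNAs at exon 9 of CD95 and deliver Cas9 by lentivirus with blasticidin selection. They name the RNA sources as Ctr, vCas9 (the Cas9-expressing line), FAS54 and FAS69, but no label ties control 1 or control 2 to Ctr or vCas9. Each library labelled CD95ko is 1 clone, so the effect of the disruption and that of cloning cannot be told apart, and the p-values measure only the spread between these cultures.

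Retinol enters cells from plasma or is formed from dietary carotenoids. It binds small cytosolic carriers, among them the product of Rbp2, which is best known from absorptive cells of the small intestine. Retinol is oxidised to retinal by short-chain dehydrogenases and then, irreversibly, to retinoic acid by enzymes of the Aldh1a family, while Cyp26 enzymes break retinoic acid down. Retinoic acid acts through receptors encoded by Rara, Rarb and Rarg, which bind DNA together with the retinoid X receptors at repeats of a short core motif. Rarb and Cyp26a1 are textbook targets of these receptors.

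Promoter stretches are shown for Rbp2, for Rarb and for Cyp26a1, because Rbp2 is the gene with the pattern at issue and the other two are textbook targets, and each carries repeats of the core motif bound by such receptors. The sequences come from RefSeq on GRCm38.p6, where 7 of the 9 members had at least 1 window of 250 bases before to 50 bases after an annotated start, and Crabp2 and Aldh1a3 had none. The core motif was searched as AGGTCA or AGTTCA or GGGTCA or GGTTCA on both strands, as direct repeats with a gap of 1, 2 or 5 bases, named DR1, DR2 and DR5 after the gap. These repeats can overlap one another. Capitals mark the repeat, and positions count from the start site.
Rbp2: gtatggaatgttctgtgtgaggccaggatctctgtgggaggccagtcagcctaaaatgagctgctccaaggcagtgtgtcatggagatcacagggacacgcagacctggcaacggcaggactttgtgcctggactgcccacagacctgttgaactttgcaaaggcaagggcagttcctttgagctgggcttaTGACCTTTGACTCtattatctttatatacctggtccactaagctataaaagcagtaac
Rarb: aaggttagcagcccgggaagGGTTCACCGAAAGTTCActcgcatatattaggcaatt
Cyp26a1: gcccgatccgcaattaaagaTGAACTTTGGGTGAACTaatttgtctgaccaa

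The Rbp2 stretch is the 250 bases before its RefSeq start (chr9:98490287-98490536, forward strand). Its capitals mark a DR1 at position -58, read against the gene, with 1 mismatch to the core motif. The Rarb stretch (chr14:16575493-16575549, reverse strand) holds an exact DR5 at position -53. Both stretches lie inside the gene spans of the GENCODE M21 annotation, chr9:98486115-98509781 and chr14:16430839-16819156. The RefSeq starts used here are therefore not the outermost GENCODE starts of these genes. The Cyp26a1 stretch (chr19:37697756-37697807, forward strand) holds an exact DR5 at position -32, read against the gene. An exact DR5 occurred in 32 of 32851 promoter windows (0.0974%), and an exact DR1 in 73 (0.222%). With at most 1 mismatch, a DR1 occurred in 850 windows (2.59%), a DR2 in 754 (2.30%) and a DR5 in 576 (1.75%). Among the windows of the other 5 members that had any, none held a DR1, DR2 or DR5 with at most 1 mismatch, which says only that these letters are not in those windows. Rbp2 and Rarb also held a DR2 and a second DR5, each with 1 mismatch. Beyond the members and Cyp26a1, the windows of 6 genes of the wider list named further on held such a repeat, an exact DR1 in Bco1 and repeats with 1 mismatch in Lipe (DR5), Adh4, Rxrg and Isx (DR1) and Stra8 (DR2). A match is a description of the letters and not a binding site. In these libraries Rbp2 was above 0 only in the controls, Rarb stayed below 1 TPM (an abundance of transcripts scaled for gene length and library size), and Cyp26a1 was above 0 only in the controls, at up to 1.39 TPM.

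The 4 libraries listed between 11193 and 12010 genes above 0, and TPM carries no read number, so depth is unknown and a gene is only said to be listed at 0. All 7 epithelial markers, such as Epcam and Krt8, were above 0 in every library, with a sum of 5077 to 5195 TPM in the controls and 7955 to 11973 TPM in the libraries labelled CD95ko. That sum was mostly keratin, and the claudin gene Cldn3 went the other way, at 671 and 615 TPM in the controls and 441 and 336 TPM in the libraries labelled CD95ko. Of the 6 leukocyte markers 5 were at 0 in all 4 libraries and Cd68 was not, all 3 endothelial and all 3 hepatocyte markers were at 0, and 2 of 4 fibroblast markers were at 0 with a sum of at most 4.52 TPM. The disrupted gene did not separate the groups. Fas had 49.4 and 39.2 TPM in the controls, 15.8 TPM in the library labelled CD95ko 1 and 49.5 TPM in the library labelled CD95ko 2, the last being level with control 1. Gene-level TPM does not resolve exon 9, and all directions below refer to the libraries as labelled.

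Rbp2 (chromosome 9, 98486115 to 98509781, forward strand, GENCODE M21 on GRCm38) was the only one of the 9 genes with a clear presence in one group and no signal in the other. Control 1 had 30.5 TPM, control 2 had 26.3 TPM (mean 28.4 ± 2.98, SD, n = 2), and both libraries labelled CD95ko listed it at 0. In bulk RNA, fewer cells with the transcript and less transcript per cell cannot be told apart. The controls were close to each other, 0.21 apart on the log2(TPM + 1) scale, and in both the level lay above the middle of the tested genes, at the 58.4th percentile in control 1 and the 62.2nd in control 2. No fold is given against a group listed at 0. In the limma fit across all 11167 tested genes, Rbp2 had a Benjamini-Hochberg adjusted p of 0.0349 and was 1 of 6 genes called (0.0537% of those tested). It was selected on this contrast and passed the filter on low values only through the controls, so nothing is read from that call. The call was lost in 5 of the 7 other settings with all 4 libraries, with adjusted p-values from 0.0151 to 0.161, and also when either control was left out (limma adjusted p = 0.556 without control 1 and 0.875 without control 2). None of the 814 distinct stretches of 25 nucleotides in Rbp2's coding transcripts occurs in a transcript of another gene.

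**Figure D1:**
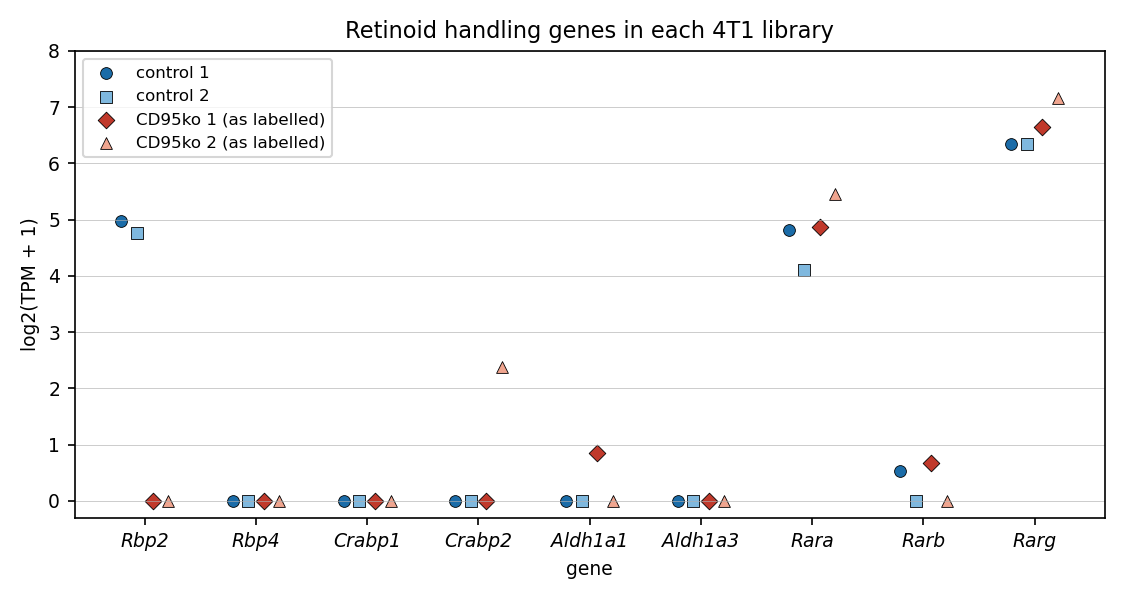
Level of each of the 9 genes in each library as log2(TPM + 1), 1 point per library, circles and squares for the controls, diamonds and triangles for the libraries labelled CD95ko. Rbp2 is at 30.5 and 26.3 TPM in the controls and at 0 in the others, Rarg is the highest gene in every library, and Rbp4, Crabp1 and Aldh1a3 are at 0 throughout.

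Few genes shared the pattern of Rbp2, and all of them had a lower minimum over the 2 controls, although Cxcl11, a chemokine gene, reached 32.5 TPM in control 1, against 2.61 TPM in control 2. Of 10340 genes with at least 1 TPM in both controls, 78 (0.754%) were listed at 0 in both libraries labelled CD95ko, Rbp2 included, and 47 genes showed the mirror pattern. The median of the lower control value over the 78 genes was 2.56 TPM, against 26.3 TPM for Rbp2, which ranked 1 among them by that value. The next was Adm, which encodes the vasodilator peptide adrenomedullin, with a lower control value of 17.2 TPM. For a range chosen after the values were seen, 1026 genes lay between 20 and 40 TPM in both controls. Of these, Rbp2 was the 1 gene listed at 0 in both libraries labelled CD95ko, 10 genes were at 0 in 1 of them, and the median of the lower value in the libraries labelled CD95ko was 24.3 TPM. Genes were ordered by their distance to Rbp2 over the 4 libraries, taken as the Euclidean distance in log2(TPM + 1). The 5 nearest were Adm (distance 0.96), the small nucleolar RNA gene Snord17 (1.05), the histone gene Hist1h3b (1.57), the sialyltransferase gene St3gal6 (1.78) and 1700037C18Rik (2.11). Adm was at 17.6 and 17.2 TPM in the controls, and St3gal6 was at 9.46 and 14.7 TPM. Hist1h3b, whose messenger RNA ordinarily lacks the poly(A) tail by which these libraries were enriched, was at 19.1 and 9.15 TPM, and 6 of the 78 genes were histone genes.

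**Figure D2:**
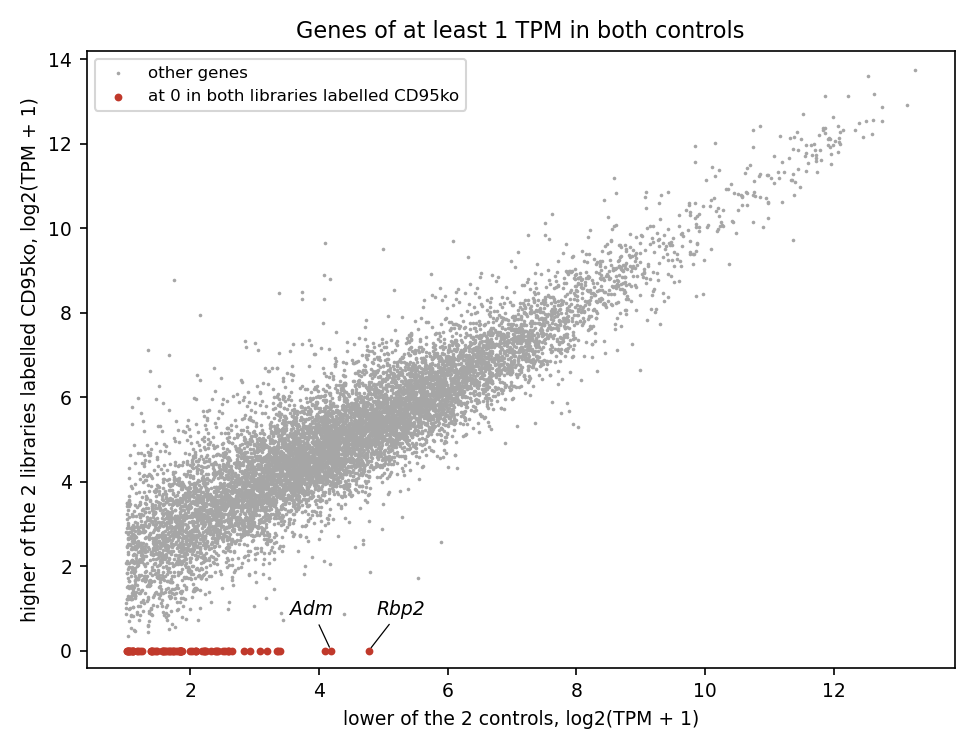
Each point is 1 of the 10340 genes with at least 1 TPM in both controls, with the lower control value on the x axis and the higher value of the libraries labelled CD95ko on the y axis, both as log2(TPM + 1). The 78 genes at 0 in both libraries labelled CD95ko are marked in red along the bottom, where Rbp2 lies farthest to the right at 26.3 TPM, ahead of Adm at 17.2 TPM.

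None of the genes examined around Rbp2 on chromosome 9 showed its pattern. Of 9 nearby protein-coding genes in RefSeq, 4 were above 0 in all 4 libraries, 5 were at 0 in all 4, and 0 were called (smallest adjusted p = 0.187, limma). Copb2, a coat protein gene 54.0 kb away, was at 114 and 77.2 TPM in the controls and at 127 and 116 TPM in the libraries labelled CD95ko. Mrps22, a mitochondrial ribosome gene 79.0 kb away, was at 85.3 and 53.8 TPM in the controls and at 31.1 and 17.7 TPM in the libraries labelled CD95ko. The groups did not overlap for Mrps22, whose log2 difference was -1.49 (95% interval -2.48 to -0.50, limma adjusted p = 0.187). Nmnat3, an enzyme gene of NAD synthesis 70.0 kb away, was at 14.1 and 1.24 TPM in the controls and at 6.74 and 1.57 TPM in the libraries labelled CD95ko, so the groups overlapped.

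**Figure D3:**
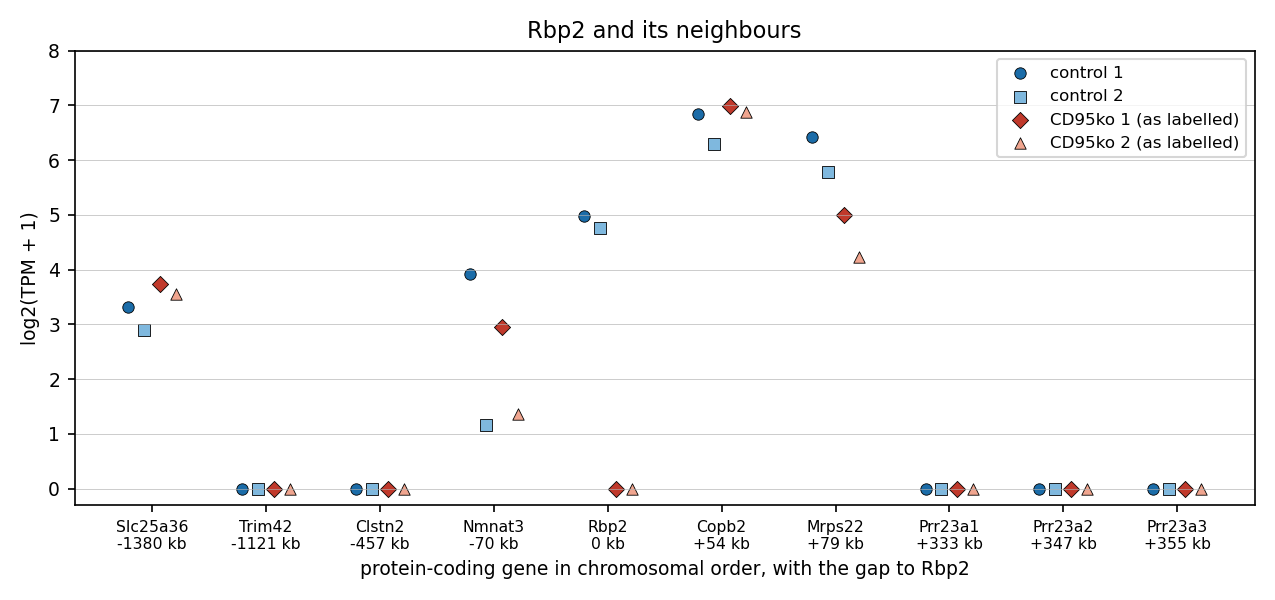
Level of Rbp2 and of 9 nearby protein-coding genes, in chromosomal order with the gap to Rbp2 in kb, as log2(TPM + 1), 1 point per library. Copb2 and Mrps22 are above 0 in every library, 5 genes are at 0 in every library, and Rbp2 is at 0 in the libraries labelled CD95ko.

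The other carriers gave little or no signal. Rbp4, which carries retinol in blood, and Crabp1, a cytosolic carrier of retinoic acid, were listed at 0 in all 4 libraries. Crabp2, which hands retinoic acid to its receptors in the nucleus, was at 0 in both controls and in the library labelled CD95ko 1 and at 4.19 TPM in the library labelled CD95ko 2. That single value lay at the 15.9th percentile of the tested genes in its library. Crabp2 did not reach the filter of at least 1 TPM in 2 libraries, and no test was made. Of 5 further carriers found among the listed genes, 4 (Rbp3, Rbp7, Rlbp1 and Ttr) were at 0 in all 4 libraries. Fabp5, a fatty acid carrier that can also bind retinoic acid, had the highest level of the carriers examined. It was at 205 and 183 TPM in the controls, at 101 TPM in the library labelled CD95ko 1 and at 27.4 TPM in the library labelled CD95ko 2. Both values were below both controls, with a log2 difference of -1.86 ± 0.54 SE (95% interval -3.08 to -0.63), which did not pass the limma threshold (adjusted p = 0.187). Without the library labelled CD95ko 1 the difference was -2.78 and the limma adjusted p was 0.000234, and without the library labelled CD95ko 2 they were -0.93 and 0.218. Each such fit takes the lone library to vary like the controls.

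The Aldh genes examined for the making of retinoic acid were nearly unlisted. Aldh1a3 was at 0 in all 4 libraries. Aldh1a1, whose activity is often used to mark stem-like cells of mammary tumours, was at 0 in 3 libraries and at 0.8 TPM in the library labelled CD95ko 1. That value sat at the 3.61st percentile of the tested genes. Its reads may be split between genes, because the neighbour Aldh1a7 shares 14.5% of the stretches of 25 nucleotides in Aldh1a1. Aldh1a2, Aldh1a7 and Aldh8a1 were at 0 throughout, and so none of the 5 Aldh genes examined passed the filter. On the breakdown side, Cyp26a1 was at 1.39 and 0.76 TPM in the controls and at 0 in both libraries labelled CD95ko. Cyp26b1 was at 1.38 TPM in the library labelled CD95ko 2 and at 0 in the others, and Cyp26c1 was at 0.81 TPM in control 1 and at 0 in the others. None of these 3 was tested. Cyp1b1, a cytochrome P450 with a wider range of substrates, had the highest mean of the genes examined for retinoic acid synthesis or breakdown. It was at 14.9 and 2.51 TPM in the controls and at 4.53 and 15.2 TPM in the libraries labelled CD95ko, so each group held 1 high and 1 low library (limma adjusted p = 0.881).

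Rbp4 and Aldh1a1 lie on chromosome 19, the chromosome of the disrupted gene, at 3.79 Mb and 13.6 Mb from Fas. Of the 10 RefSeq neighbours of Rbp4, 4 were above 0 in all 4 libraries and 3 at 0 in all 4, and the counts around Aldh1a1 were 4 and 4. In each neighbourhood 9 of the 10 genes were found among the listed genes, and 0 were called by limma. Ffar4 and Pde6c on either side of Rbp4 and Aldh1a7 beside Aldh1a1 were at 0, while Anxa1, the nearest gene on the other side of Aldh1a1, was at 1028 and 1098 TPM in the controls and at 1255 and 2252 TPM in the libraries labelled CD95ko.

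Among the 9 genes, Rara and Rarg were the ones above 0 in every library. Rarg (chromosome 15, 102234938 to 102257517, reverse strand) was at 80.0 TPM in control 1, 79.7 TPM in control 2, 99.4 TPM in the library labelled CD95ko 1 and 142 TPM in the library labelled CD95ko 2. The controls were almost identical, both libraries labelled CD95ko lay above them, and the 2 clones differed from each other by 0.51 on the log2(TPM + 1) scale. The group difference was 0.57 ± 0.33 SE on that scale (95% interval -0.19 to 1.33) and did not pass the threshold (limma adjusted p = 0.46). It was 0.31 without the library labelled CD95ko 2 and 0.82 without the library labelled CD95ko 1. Rara (chromosome 11, 98927818 to 98974942, forward strand) was at 27.0 TPM in control 1, 16.3 TPM in control 2, 28.2 TPM in the library labelled CD95ko 1 and 42.9 TPM in the library labelled CD95ko 2. The groups did not overlap, but control 1 and the library labelled CD95ko 1 were nearly level, and the controls differed by 0.70 on the log2 scale. The group difference of Rara was 0.70 ± 0.45 SE (95% interval -0.32 to 1.73, limma adjusted p = 0.498). It ranged from 0.35 to 1.05 when 1 library was left out, lowest without control 2 and highest without control 1. Rarb was at 0.45 TPM in control 1, 0.59 TPM in the library labelled CD95ko 1 and 0 in the other two libraries, below the filter.

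Neither difference passed the test. The median difference over all tested genes was itself 0.13 on the log2 scale, and 0.002 after quantile normalization, so Rarg stood 0.44 and Rara 0.57 above that median. Under quantile normalization the differences were 0.53 for Rarg and 0.51 for Rara, and the groups still did not overlap. Groups that do not overlap were common, at 47.6% of the tested genes, and Rara and Rarg were among these, as was Rbp2 by its selection. No member other than Rbp2 was called, against 0.0537% of tested genes, and neither Rara nor Rarg had an unadjusted p under 0.05, which 14.9% of tested genes did. With a genome-wide 5.49% of tested genes over 2-fold apart in the same direction in all 4 pairs of a control with a library labelled CD95ko, Rbp2 was the 1 member with such a difference.

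The order Rarg, Rara, Rarb held in all 4 libraries. Rarg exceeded Rara by 2.96 times in control 1, 4.89 times in control 2, 3.52 times in the library labelled CD95ko 1 and 3.32 times in the library labelled CD95ko 2, and made up 74.4% to 83.0% of the summed TPM of the 3 receptors. That sum was 107 and 96.0 TPM in the controls and 128 and 185 TPM in the libraries labelled CD95ko. The 2 genes did not overlap over the libraries, with the lowest Rarg value at 79.7 TPM and the highest Rara value at 42.9 TPM. Among the partner receptors, Rxrb was at 102 and 55.7 TPM in the controls and at 88.2 and 68.8 TPM in the libraries labelled CD95ko, so the groups overlapped. Its log2 difference was 0.05 (95% interval -0.84 to 0.94) and turned to -0.032 under quantile normalization. Rxra, named here after its values were seen, was at 20.2 and 12.4 TPM in the controls and at 30.5 and 50.4 TPM in the libraries labelled CD95ko. Its difference of 1.26 ± 0.46 SE did not pass the threshold (limma adjusted p = 0.267). The ratio of Rxrb to Rxra was 5.02 and 4.5 in the controls, 2.9 in the library labelled CD95ko 1 and 1.36 in the library labelled CD95ko 2, and Rxrg was at 0 in every library.

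The rest of the pathway was read from a list of 71 further genes. They covered carriers, uptake, ester metabolism, oxidoreductases, retinoic acid synthesis and breakdown, partner receptors, co-regulators and genes known to be induced by retinoic acid. Of the 71 genes, 70 were found, 27 were at 0 in all 4 libraries and 35 were tested. By limma's adjusted p, 0 were called in either direction, against 0.0537% of all tested genes. At an unadjusted limma p under 0.05, 4 were higher and 1 lower, against 14.9% of all tested genes in either direction. The groups did not overlap for 16 genes, 14 higher and 2 lower in the libraries labelled CD95ko, against 47.6% of all tested genes. Over all 11167 tested genes, 3266 were higher and 2046 lower without overlap. The median log2 difference of the 35 was 0.31, against 0.13 over all tested genes, and 0.11 under quantile normalization. Counted again under quantile normalization, 12 genes were higher and 4 lower without overlap, against 51.4% of all tested genes in either direction.

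Only 2 of the 35 genes were over 2-fold apart in the same direction in all 4 pairs, and both were higher in the libraries labelled CD95ko. That is near the 5.49% over all tested genes. Meis1, a homeobox gene known to respond to retinoic acid, was at 3.11 and 1.95 TPM in the controls and at 11.2 and 9.56 TPM in the libraries labelled CD95ko (log2 difference 1.70 ± 0.57 SE, limma adjusted p = 0.235). Lipe, which encodes hormone-sensitive lipase, an enzyme that also cleaves retinyl esters, was at 5.55 and 4.47 TPM in the controls and at 13.7 and 12.3 TPM in the libraries labelled CD95ko (log2 difference 1.22 ± 0.52 SE, limma adjusted p = 0.32). In both genes the clones lay close together and apart from the controls, at low levels. Of the 12 genes grouped as induced by retinoic acid, Meis1 included, 6 were at 0 in all 4 libraries and 6 were tested. Dhrs3 and Cyp26a1, also known to be induced by it, were counted under other roles, and Rarb among the members. Among the 6 tested, 2 were higher and 1 lower without overlap, beside 47.6% of all tested genes in either direction. The lower one was Meis2, at 1.53 and 1.95 TPM in the controls and at 0.67 and 1.41 TPM in the libraries labelled CD95ko. Btg2 of that group was nearly level, with a log2 difference of -0.013. Adh5, the most abundant oxidoreductase of the list, was nearly constant, at 164 and 158 TPM in the controls and at 169 and 167 TPM in the libraries labelled CD95ko, with a 95% interval of the log2 difference from -0.61 to 0.72. Scarb1, a lipid and carotenoid uptake receptor, was at 48.0 and 27.6 TPM in the controls and at 59.5 and 35.6 TPM in the libraries labelled CD95ko, with overlapping groups. Hdac3, the most abundant co-regulator of the list and the deacetylase of the complexes that silence unliganded receptors, was at 59.5 and 37.7 TPM in the controls and at 82.7 and 76.3 TPM in the libraries labelled CD95ko (limma adjusted p = 0.388). Of the 10 co-regulators 5 did not overlap, all 5 higher, beside 47.6% of all tested genes in either direction. Higher without overlap were 3266 of all 11167 tested genes. Among the 10 co-regulators, 0 had an unadjusted limma p under 0.05 (14.9% of all tested genes).

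The library labelled CD95ko 2 differed from the other 3 in several retinoid genes, a pattern seen in the data and not tested between the clones, which have 1 library each. Dhrs3, a retinal reductase that retinoic acid induces, was at 3.79 and 1.6 TPM in the controls, 5.02 TPM in the library labelled CD95ko 1 and 97.1 TPM in the library labelled CD95ko 2. Rdh10, which makes retinal from retinol, was at 18.0, 16.9 and 21.8 TPM in the first 3 of these libraries and at 67.5 TPM in the library labelled CD95ko 2. Both genes had their highest value in that library, and Dhrs3 also varied among the other 3. Tgm2, a transglutaminase gene known to be induced by retinoic acid, was at 89.3 and 57.98 TPM in the controls, 81.9 TPM in the library labelled CD95ko 1 and 383 TPM in the library labelled CD95ko 2. Dgat1, an acyltransferase that can also form retinyl esters, was at 12.0, 9.32, 14.1 and 66.7 TPM in the same order. Stra6, the membrane receptor of the plasma retinol carrier, was at 0 in both controls, 0.57 TPM in the library labelled CD95ko 1 and 7.21 TPM in the library labelled CD95ko 2. Crabp2, Rara, Rarg and Rxra also had their highest value there. Other genes went the other way, among them Fabp5, given above, which was lowest in that library. The oxidoreductase gene Adh7 was at 17.69 and 18.75 TPM in the controls, 31.98 TPM in the library labelled CD95ko 1 and 8.15 TPM in the library labelled CD95ko 2. Rdh14, of the same role, was at 24.08, 13.21, 35.29 and 9.52 TPM in the same order. Rarb and Cyp26a1, the genes with an exact DR5 shown above, were at 0 in that library, but not only there. Rarb was also at 0 in control 2 and Cyp26a1 in the library labelled CD95ko 1, and neither exceeded 1.39 TPM in any library.

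Of the 35 tested genes of the list, 4 (Dhrs3, Rdh10, Tgm2 and Dgat1) were over 2-fold higher in the library labelled CD95ko 2 than in each of the other 3, or 11.4%, against 621 of all 11167 tested genes (5.56%). Genes over 2-fold lower in the library labelled CD95ko 2 than in each of the other 3 were not counted. The library labelled CD95ko 2 held the highest value of 12 of the 35 genes (34.3%), close to its 31.5% over all tested genes. None of these 4 genes passed the threshold in the group comparison. The limma adjusted p was 0.287 for Dhrs3, 0.387 for Rdh10, 0.377 for Tgm2 and 0.358 for Dgat1. These 4 genes were chosen by their high value in the library labelled CD95ko 2, so their differences from the controls are given for each clone as values, with no test. On the log2(TPM + 1) scale they were 4.80 for Dhrs3, 1.89 for Rdh10, 2.40 for Tgm2 and 2.54 for Dgat1 in the library labelled CD95ko 2. In the library labelled CD95ko 1 they were 0.77, 0.30, 0.18 and 0.38 in the same order. Rbp2 was at 0 in both clones and so did not follow this pattern. The summed epithelial markers were also highest in that library, at 11973 TPM, while Cldn3 and Cldn7 were at their lowest there, and Cd68 was at 146 TPM there against 17.8 to 44.6 TPM in the others. Their part in the result was not tested.

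**Figure D4:**
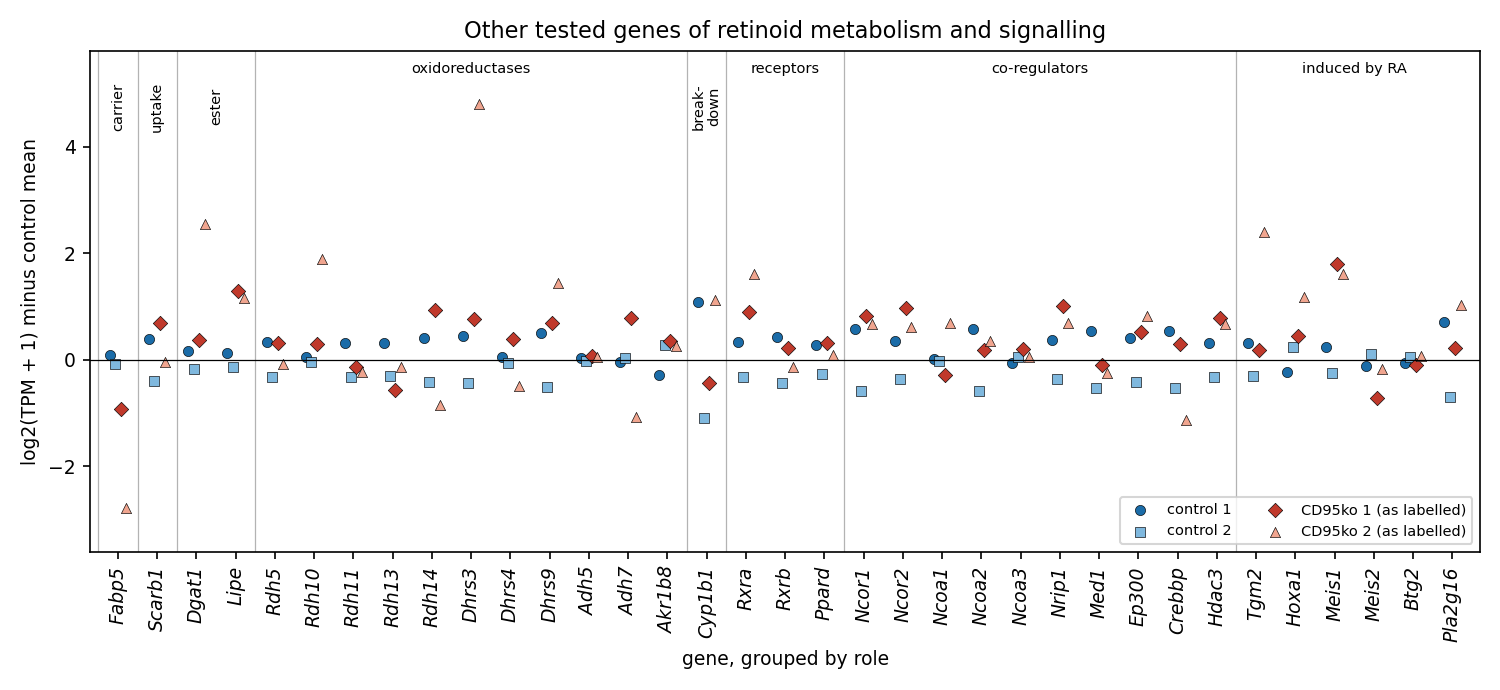
Tested genes of the wider list, grouped by role, with each library's log2(TPM + 1) minus the mean of the 2 controls, 1 point per library. The group marked breakdown stands for retinoic acid synthesis and breakdown. The triangles of the library labelled CD95ko 2 stand apart at Dhrs3 (97.1 TPM), Tgm2 (383 TPM) and Dgat1 (66.7 TPM), and Fabp5 lies below both controls in both libraries labelled CD95ko.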

How the data were processed

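RNA-seq of 4 cultures (2 per group) was analysed. The deposited values are TPM per gene symbol, per the file headers. The submitters' processing notes name STAR 2.6.0, RSEM 1.3.0 and mm10, and the annotation is not given in the sources used here. TPM holds no read number, so count tests were not used and precision rests on 2 libraries per group. Genes of at least 1 TPM in at least 2 libraries (11167) were transformed to log2(TPM + 1), which understates changes of low genes, and compared with limma 3.58.1 in R 4.3.3 (eBayes with trend, two-sided, Benjamini-Hochberg over all tested genes, threshold 0.05), tested on simulated data. An exact permutation test of 2 against 2 cannot go below p = 0.333. Positions came from GENCODE M21 and neighbours from RefSeq on GRCm38.p6. One list gene (Rbp5) had no match, and Plaat3 was matched as Pla2g16. The members, lists and alternatives were chosen with earlier results of these data known. Genes named from the wider list were the highest in each role, those called, and those over 2-fold apart in all 4 pairs; other genes of that list, among them Rxra, Rdh10, Dhrs3, Stra6 and the Cyp26 genes, and the neighbours Copb2, Mrps22, Nmnat3 and Anxa1 were named after their values were seen. Some genes of the lists and neighbourhoods are not reported here and are left out of their counts. Alternatives were another pseudocount (0.1), 2 other filters, eBayes without trend or robust, normalization by quantiles, a block for the replicate number, and leaving out each library.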

Additional observations from a re-analysis of the deposited data

How the results depend on the processing

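The number of genes called by limma, 6 as reported, was 0 in 4 settings: pseudocount 0.1, no filter on low values, eBayes with no trend, and quantile normalization. The genes with an unadjusted p under 0.05 then numbered 1553, 1636, 1531 and 1862, against 1667. A mean TPM of at least 5 gave 55 genes and robust eBayes 52, and leaving out 1 library gave 0 to 1034, lowest without either control and highest without the library labelled CD95ko 1. The cause was not tested. Of the 9 members, the 1 called (Rbp2) fell to 0 in the same 4 settings and with the replicate block, and the count was 0 to 1 when 1 library was left out, 0 without either control. The wider list had 0 called under every setting with 4 libraries and 0 to 5 when 1 was left out, 5 only without the library labelled CD95ko 1, where 4 of the 5 are the genes named for their high value in the library labelled CD95ko 2. Rara (0.51 to 0.73 with 4 libraries) and Rarg (0.53 to 0.57, and 0.31 to 0.82 when 1 library was left out) kept their direction and stayed short of the threshold under all 11 alternatives.

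The genes with Rbp2's pattern numbered 13 instead of 78 when both controls had to reach 5 TPM, and 85 when up to 0.5 TPM was allowed in the libraries labelled CD95ko. Some named genes, among them Btg2, were not followed through the alternatives. Of those followed, directions turned when 1 library was left out for Scarb1 (-0.059 to 0.72, negative without control 2 or the library labelled CD95ko 1), Cyp1b1 (-0.75 to 1.43, negative without control 2 or the library labelled CD95ko 2) and Rxrb (-0.38 to 0.48, negative without control 2 or the library labelled CD95ko 1). Rxrb also turned to -0.032 under quantile normalization. The replicate numbers share only a number: deviations of same-numbered libraries correlated at -0.081 across genes, and the block gave 2 called genes, 1 of them among the 6. The planned edgeR and DESeq2 alternatives were not run, since TPM are not counts.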
